A study of Homo sapiens with 6 samples.

Results

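Claudins, other tight-junction proteins, desmosomal proteins and keratins hold epithelial cells together and give them their inner scaffold. All human genes of these families were chosen by symbol: the claudins (CLDN), the zonula occludens genes (TJP), the desmogleins (DSG), desmocollins (DSC) and plakophilins (PKP), the keratins (KRT), and OCLN, CGN, DSP, JUP, F11R, MARVELD2 and MARVELD3. This gave 100 of the 28265 genes in the count table. RNA was sequenced from Huh7, a cell line derived from a human hepatocellular carcinoma and long in use, at 48 h after the cells were given a lentivirus that carried either an LHX2 expression vector (LHX2 group, 3 libraries) or a control vector (CTRL group, 3 libraries). LHX2 is a LIM-homeodomain transcription factor, and the title of the series asks about its hold on MAPK/ERK and Wnt/beta-catenin signalling. A second label calls the CTRL cells parental, although they too received a vector. The promoter that drove LHX2 is not given in the sources used here. All libraries come from a single cell line, and no label says whether the replicates were grown separately. Their p-values therefore reflect how far these libraries scatter, and that scatter may be technical.

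Tight junctions seal the space between neighbouring epithelial cells. Claudins are the membrane proteins that set which ions and solutes pass, occludin, tricellulin and junctional adhesion molecules sit beside them, and zonula occludens proteins and cingulin form the plaque that ties them to actin. Desmosomes are spot-like contacts in which desmogleins and desmocollins bridge the cells, while plakoglobin, plakophilins and desmoplakin anchor keratin filaments to the membrane. Keratin filaments are built from pairs of a type I and a type II chain, and hepatocytes are known for a simple pair, KRT8 with KRT18. Bile duct cells add KRT7 and KRT19, and stratified epithelia use KRT5 with KRT14 and KRT1 with KRT10.

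The targeted gene followed the labels, with 2535, 2427 and 3126 LHX2 counts in the LHX2 libraries and 1, 2 and 1 in the CTRL libraries. Total counts ran from 30029313 to 35194438 in the LHX2 libraries and from 32625405 to 39653681 in the CTRL libraries. Levels are given in CPM, the counts-per-million unit computed on TMM-scaled library totals, and a gene without reads could have had up to 3 counts, or 0.0765 to 0.1 CPM depending on the library. The 10 hepatocyte genes checked were all expressed, with summed levels of 45873 to 50290 CPM in LHX2 and 49272 to 50655 CPM in CTRL libraries. In the edgeR quasi-likelihood test with Benjamini-Hochberg adjustment, 32.5% of the 14533 genes tested passed an adjusted p of 0.05. As shares of all genes tested, 16.6% were higher and 15.8% lower with LHX2. Of the 10 hepatocyte genes, 4 fell, 1 rose and 5 did not pass, with a median log2 fold change of -0.10. RNA was pooled over all cells of a culture, so fewer cells expressing a gene and less RNA per cell cannot be told apart.

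Many of the junction and keratin genes had no reads, and a smaller set was expressed well enough in Huh7 cells to be tested. No read was counted in any library for 49 of the 100 genes, which comprised 41 keratins, 7 claudins and the plakophilin PKP1. A further 16 genes had a few reads and were not tested, and 35 genes were tested. Of those 35, 9 rose with LHX2 (CLDN6, OCLN, F11R, DSC2, DSP, PKP3, KRT8, KRT18 and KRT19), 7 fell (among them CLDN1, CLDN2, CGN, PKP2, KRT222 and KRT23) and 19 did not pass. The called share was 45.7%, beside 32.5% of all genes tested, and where the mean level reached 5 CPM it was 13 of 22 junction and keratin genes beside 38.9% of all such genes. The 3 libraries of each group did not overlap for 20 of the 35 genes (57.1%), beside 44.9% of all genes tested. The median log2 fold change was 0.08 for these 35 genes and 0.01 for all genes, and the median size of the change without its sign was 0.27 and 0.16. A change of at least 1.5-fold was seen in 6 of the 35 genes and in 8.74% of all genes, so most of the shifts described here were modest.

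**Figure D1:**
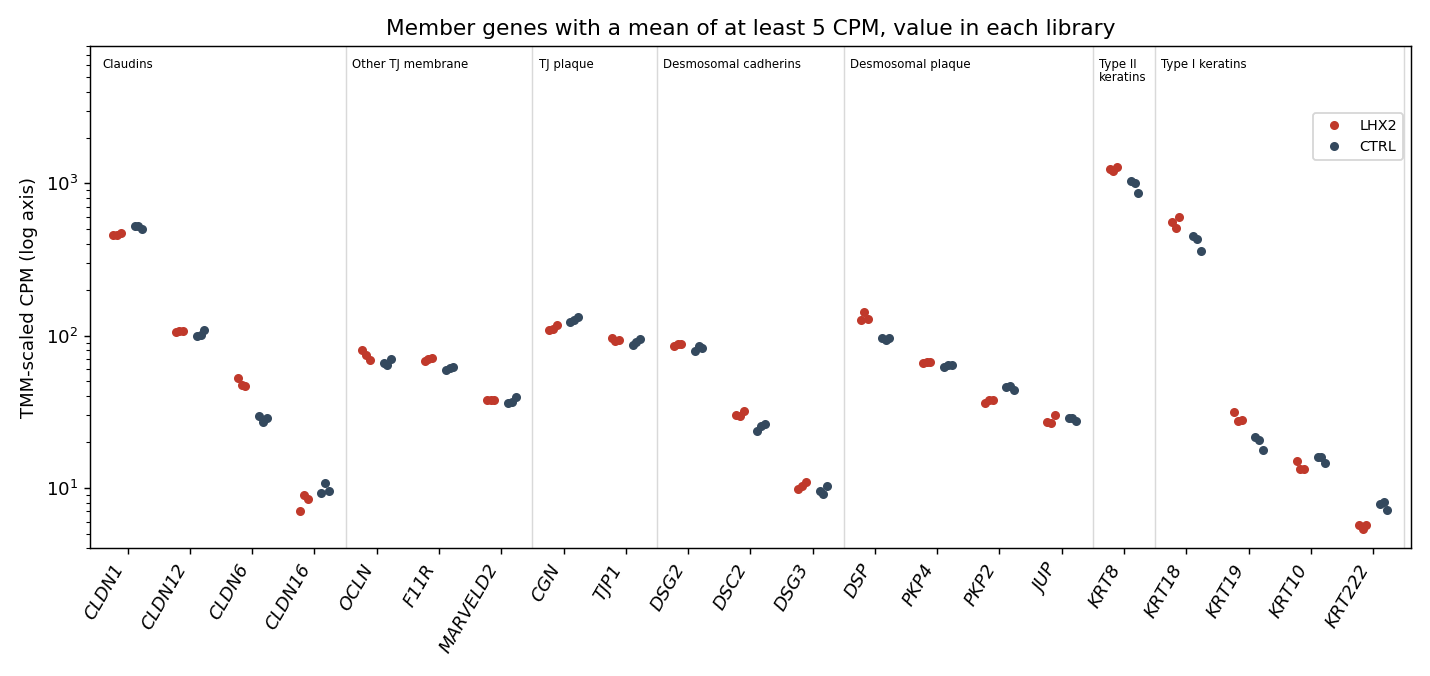
Level in every library of junction and keratin genes whose mean reached 5 CPM, in TMM-scaled CPM on a log axis, with LHX2 libraries in red left of CTRL libraries in dark blue and genes ordered by role. KRT8 is the most abundant, at 1211 to 1285 CPM in LHX2 and 859 to 1040 CPM in CTRL libraries, and the replicates of a gene lie close together.

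Among the claudins, CLDN6 was higher and CLDN1 and CLDN2 were lower with LHX2. CLDN6, a claudin of embryonic and fetal epithelia that most adult tissues lack, was the claudin with the clearest rise, and CLDN2, which forms a pore for cations and water, had the largest fall. CLDN1, a sealing claudin of liver and skin that hepatitis C virus uses as an entry factor, was by far the most abundant and changed by a smaller factor. Their upstream sequences are printed to set CLDN2 beside CLDN6 and CLDN1 at their starts. Each is the 250 bases before a RefSeq transcript start (GRCh38.p14), 5′ to 3′ on the gene's strand, and capitals mark GGGCGG or its reverse complement, the core of the GC box. CLDN6 lies at chr16:3018184-3018433 on the minus strand and CLDN1 at chr3:190322447-190322696 on the minus strand. For CLDN2, the windows of a pair of starts are given, at chrX:106899914-106900163 (CLDN2 a) and chrX:106918110-106918359 (CLDN2 b), both on the plus strand.
CLDN6: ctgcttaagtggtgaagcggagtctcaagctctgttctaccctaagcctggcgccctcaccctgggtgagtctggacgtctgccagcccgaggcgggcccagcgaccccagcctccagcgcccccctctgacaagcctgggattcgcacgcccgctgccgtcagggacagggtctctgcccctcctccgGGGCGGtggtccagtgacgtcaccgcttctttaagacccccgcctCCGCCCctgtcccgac
CLDN1: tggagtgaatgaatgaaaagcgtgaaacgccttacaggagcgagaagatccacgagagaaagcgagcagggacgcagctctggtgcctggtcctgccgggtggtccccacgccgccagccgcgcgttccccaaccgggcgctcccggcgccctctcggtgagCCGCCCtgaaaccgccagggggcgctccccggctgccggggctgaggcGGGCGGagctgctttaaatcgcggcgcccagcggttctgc
CLDN2 a: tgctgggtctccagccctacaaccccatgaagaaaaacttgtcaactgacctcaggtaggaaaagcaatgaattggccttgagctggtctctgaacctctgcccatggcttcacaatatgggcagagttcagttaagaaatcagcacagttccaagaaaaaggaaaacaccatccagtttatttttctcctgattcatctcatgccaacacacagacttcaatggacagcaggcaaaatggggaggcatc
CLDN2 b: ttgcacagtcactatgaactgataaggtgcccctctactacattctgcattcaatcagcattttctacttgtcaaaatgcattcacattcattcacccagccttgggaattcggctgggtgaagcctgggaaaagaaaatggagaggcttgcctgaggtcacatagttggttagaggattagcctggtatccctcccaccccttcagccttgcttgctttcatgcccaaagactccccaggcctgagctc

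The windows of CLDN6 and CLDN1 were rich in G and C (68.0% and 68.8%), held 18 and 28 CpG dinucleotides, and each had 2 matches to the GC box core. The windows of CLDN2 had 46.0% and 48.8% G and C, with 0 and 1 CpG and no match. CLDN6 and CLDN1 share these features although their RNA moved in opposite directions.

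CLDN6 had 52.8, 47.3 and 46.8 CPM in the LHX2 libraries, against 29.6, 27.0 and 28.6 CPM in the CTRL libraries. Every LHX2 library was above every CTRL library, and the log2 fold change of 0.79 ± 0.06 (SE), a 1.72-fold difference, had an edgeR adjusted p of 1.3e-07. CLDN2 was near the lower end of what could be tested, with 29, 19 and 23 reads in LHX2 and 64, 71 and 50 reads in CTRL libraries. That is 0.965, 0.624 and 0.638 CPM in LHX2 libraries, against 1.97, 1.81 and 1.54 CPM in CTRL libraries. The groups stayed apart, with a log2 fold change of -1.26 ± 0.23 (2.40-fold lower, edgeR adjusted p = 0.00062).

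CLDN1 carried most of the claudin reads. It had 459, 455 and 472 CPM in LHX2 libraries, against 524, 525 and 504 CPM in CTRL libraries and made up 74.8% of the summed claudin CPM. The LHX2 libraries all lay below the CTRL libraries, and in the fit CLDN1 fell by 10.8% (log2 fold change -0.17 ± 0.04, edgeR adjusted p = 0.0036). CLDN12, a broadly expressed claudin and the next most abundant, had 106, 107 and 107 CPM in LHX2 and 99.4, 101 and 108 CPM in CTRL libraries, with overlap and no call (log2 fold change 0.05 ± 0.04, 95% interval -0.03 to 0.13, edgeR adjusted p = 0.39). CLDN16, known for magnesium and calcium transport in the kidney, had 7.06, 8.93 and 8.41 CPM in LHX2 and 9.19, 10.7 and 9.55 CPM in CTRL libraries. Its groups did not overlap, but its edgeR adjusted p of 0.055 missed the threshold (log2 fold change -0.27 ± 0.10), and other settings put it on either side.

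Divided by transcript length, the leading claudins kept their order in both groups, CLDN1 before CLDN12 before CLDN6, with a different gap between CLDN12 and CLDN6. CLDN1 had 133 CPM per kilobase in LHX2 and 149 in CTRL libraries. CLDN12 had 29.9 and CLDN6 28.2 CPM per kilobase in LHX2 libraries, while in CTRL libraries CLDN12 had 28.9 and CLDN6 16.3. CLDN6 thus came close to CLDN12 in LHX2 cells and lay well below it in CTRL cells. The transcript lengths are those of the longest coding transcript and only approximate what these cells make.

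The other 6 tested claudins, CLDN7, CLDN11, CLDN14, CLDN15, CLDN19 and CLDN23, had means below 5 CPM and did not pass. CLDN19, another kidney claudin, had 11, 11 and 20 reads in LHX2 and 7, 7 and 8 reads in CTRL libraries (log2 fold change 1.02 ± 0.38, edgeR adjusted p = 0.055). CLDN23 averaged 3.36 CPM in LHX2 and 4.15 CPM in CTRL libraries, also without overlap (log2 fold change -0.31 ± 0.13, edgeR adjusted p = 0.079). CLDN3 and CLDN4, common claudins of other simple epithelia, were close to silent, with a single read for CLDN3 and with 3, 2 and 2 reads in LHX2 and 6, 7 and 10 reads in CTRL libraries for CLDN4. CLDN9, whose gene ends 206 bases from CLDN6, had at most 1 read in any library. CLDN10, CLDN18 and CLDN34 also fell short of the test, with at most 6 reads in a library. Summed over all claudins, the level was 637 ± 8.92 CPM in LHX2 and 672 ± 8.03 CPM in CTRL libraries (SD, n = 3), a sum set mostly by CLDN1.

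Of the 4 other membrane proteins of the tight junction, 2 rose with LHX2 and the other 2 did not pass. F11R, which encodes junctional adhesion molecule A, had 67.7, 70.5 and 71.2 CPM in LHX2 libraries, against 59.3, 61.2 and 62.3 CPM in CTRL libraries. The groups were apart, and the rise was 14.6% (log2 fold change 0.20 ± 0.04, edgeR adjusted p = 0.0026). OCLN, which encodes occludin, had 80, 74.4 and 69.4 CPM in LHX2 libraries, against 65.7, 64.2 and 69.7 CPM in CTRL libraries. Here LHX2 replicate 3 lay below CTRL replicate 3, and the call was weak (log2 fold change 0.16 ± 0.05, edgeR adjusted p = 0.029). It was lost without LHX2 replicate 1 (0.11, edgeR adjusted p = 0.16), LHX2 replicate 2 (0.17, 0.059), CTRL replicate 1 (0.15, 0.095) or CTRL replicate 2 (0.14, 0.14).

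MARVELD2 encodes tricellulin, which closes the corners where cells meet, and it did not pass. It had 37.9, 37.8 and 37.9 CPM in LHX2 and 36.3, 36.5 and 39.3 CPM in CTRL libraries, with a 95% interval of the log2 fold change of -0.08 to 0.12. MARVELD2 and OCLN are neighbours on chromosome 5, 48216 bases apart. MARVELD3, a lower expressed relative, averaged 2.61 ± 0.384 CPM in LHX2 and 2.07 ± 0.307 CPM in CTRL libraries (SD, n = 3), and its log2 fold change of 0.33 ± 0.17 had an edgeR adjusted p of 0.16.

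In the plaque of the tight junction, CGN fell with LHX2, while TJP1 and TJP3 did not pass. CGN encodes cingulin, a link from the plaque to actin and microtubules, and had 109, 110 and 117 CPM in LHX2 libraries, against 122, 127 and 132 CPM in CTRL libraries. Every LHX2 library was below every CTRL library, and the level fell by 11.6% (log2 fold change -0.18 ± 0.04, edgeR adjusted p = 0.0062).

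TJP1, the most studied zonula occludens gene, did not pass, with 96.2, 92.5 and 93.1 CPM in LHX2 and 86.6, 90.4 and 94.5 CPM in CTRL libraries. Its log2 fold change of 0.05 ± 0.04 had a 95% interval of -0.03 to 0.14 and an edgeR adjusted p of 0.38. TJP3 was much lower in level, at 4.64 ± 0.153 CPM in LHX2 and 5.14 ± 0.456 CPM in CTRL libraries (SD, n = 3), and did not pass. Per kilobase, CGN had 22.1 CPM in LHX2 and 24.9 CPM in CTRL libraries, and TJP1 had 11.8 CPM in LHX2 and 11.4 CPM in CTRL libraries.

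Among the desmosomal cadherins, DSC2 rose and the other 4 tested genes did not pass. DSC2, the desmocollin of simple epithelia and heart, had 30, 29.5 and 32.0 CPM in LHX2 libraries, against 23.7, 25.3 and 26.3 CPM in CTRL libraries. The LHX2 libraries were all higher, with a log2 fold change of 0.28 ± 0.06 (edgeR adjusted p = 0.003). DSG2, its desmoglein counterpart in the same tissues, had 85.3, 88.4 and 88.2 CPM in LHX2 and 79.2, 84.9 and 82.6 CPM in CTRL libraries. The DSG2 groups did not overlap either, but the shift was small and missed the threshold (log2 fold change 0.09 ± 0.04, edgeR adjusted p = 0.13).

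DSG3, a desmoglein best known from the basal layers of skin and mouth, was measurable in this liver line. It had 9.89, 10.3 and 10.9 CPM in LHX2 and 9.47, 9.16 and 10.2 CPM in CTRL libraries, and did not pass (log2 fold change 0.12 ± 0.09, edgeR adjusted p = 0.33). DSG1 and DSC3, further cadherins of stratified epithelia, averaged 1.04 and 0.640 CPM in LHX2 and 1.11 and 0.481 CPM in CTRL libraries and did not pass. DSC1 and DSG4 had at most 5 reads in any library. All 7 desmosomal cadherins lie in a 560 kb cluster on chromosome 18, between positions 30989365 and 31549008 of GRCh38, so the single called gene of the cluster, DSC2, sat among neighbours that had few reads or did not pass.

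In the desmosomal plaque, DSP and PKP3 were higher and PKP2 was lower. DSP encodes desmoplakin, the protein that binds keratin filaments to the plaque, and had 127, 142 and 129 CPM in LHX2 libraries, against 96.4, 94.1 and 96.4 CPM in CTRL libraries. The groups were far apart, and the rise was 1.39-fold (log2 fold change 0.47 ± 0.05, edgeR adjusted p = 1.7e-06). With the length and GC trend of transcripts removed, the DSP log2 fold change was smaller, at 0.33 (edgeR adjusted p = 3.1e-06). PKP2, a plakophilin that recruits desmoplakin and is best known from heart muscle, had 36.1, 38.0 and 37.7 CPM in LHX2 libraries, against 45.8, 46.5 and 44.1 CPM in CTRL libraries. All LHX2 libraries were lower, by 1.22-fold (log2 fold change -0.29 ± 0.05, edgeR adjusted p = 0.00035).

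PKP3, a plakophilin of many epithelia, was low in this line, with 30, 31 and 39 reads in LHX2 and 23, 19 and 21 reads in CTRL libraries. Its level was 0.999, 1.02 and 1.08 CPM in LHX2 and 0.707, 0.485 and 0.647 CPM in CTRL libraries (log2 fold change 0.77 ± 0.25, edgeR adjusted p = 0.028). The call was lost in edgeR without LHX2 replicate 1 or 2 (0.78 each, adjusted p = 0.055), LHX2 replicate 3 (0.73, 0.074), CTRL replicate 2 (0.61, 0.15) or CTRL replicate 3 (0.81, 0.057), with the length and GC trend removed (0.66, 0.057), and with DESeq2 (0.76, 0.099). JUP encodes plakoglobin, which desmosomes share with adherens junctions, and had 27.0, 26.5 and 30 CPM in LHX2 and 28.7, 28.6 and 27.4 CPM in CTRL libraries. It did not pass (log2 fold change -0.02 ± 0.06, 95% interval -0.15 to 0.10, edgeR adjusted p = 0.83). PKP4, which is found at adherens junctions as well, had 66.2, 67.3 and 67.1 CPM in LHX2 and 62.6, 63.7 and 63.7 CPM in CTRL libraries, a small shift without overlap that did not pass (log2 fold change 0.08 ± 0.04, edgeR adjusted p = 0.15). Per kilobase, DSG2 had 15 CPM in LHX2 and 14.1 CPM in CTRL libraries, DSP 13.5 and 9.76, PKP4 11.6 and 11, and PKP2 8.66 and 10.6. DSG2 was thus first in both groups, while DSP was above PKP4 and PKP2 in LHX2 and below them in CTRL libraries. The summed level of the desmosomal genes was 396 ± 10.4 CPM in LHX2 and 352 ± 3.15 CPM in CTRL libraries (SD, n = 3), with 30.5% of the CPM from DSP.

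**Figure D2:**
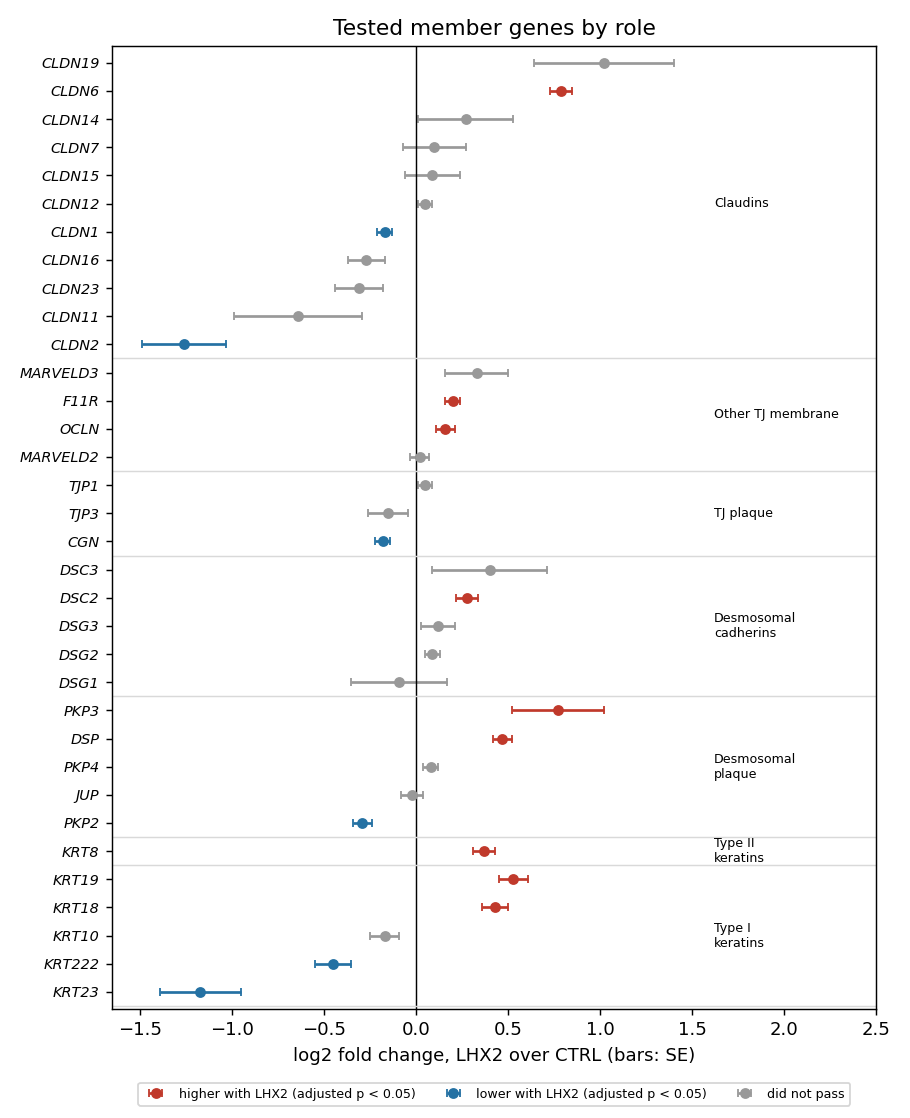
Log2 fold change of LHX2 over CTRL for tested junction and keratin genes, grouped by role, with bars of 1 standard error and colour by the edgeR call. Within the claudins, the desmosomal plaque and the type I keratins, called genes stand on both sides of 0, from CLDN6 (0.79) to CLDN2 (-1.26), from PKP3 (0.77) to PKP2 (-0.29) and from KRT19 (0.53) to KRT23 (-1.17).

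Keratin RNA in Huh7 cells was almost wholly KRT8 and KRT18, which made up 97.1% of the summed keratin CPM, and both rose with LHX2. KRT8, the type II chain, had 1251, 1211 and 1285 CPM in LHX2 libraries, against 1040, 1009 and 859 CPM in CTRL libraries. KRT18, its type I partner, had 561, 513 and 601 CPM in LHX2 libraries, against 452, 431 and 358 CPM in CTRL libraries. In both genes every LHX2 library was above every CTRL library. The rise was 1.29-fold for KRT8 (log2 fold change 0.37 ± 0.06, edgeR adjusted p = 0.00026) and 1.35-fold for KRT18 (0.43 ± 0.07, edgeR adjusted p = 0.00038).

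KRT19, a type I keratin of bile ducts, rose too at a far lower level, 20.7 CPM per kilobase in LHX2 and 14.4 in CTRL libraries against 329 and 244 for KRT18. It had 31.3, 27.3 and 27.9 CPM in LHX2 libraries, against 21.5, 20.7 and 17.7 CPM in CTRL libraries. The groups did not overlap, and the rise was 1.44-fold (log2 fold change 0.53 ± 0.08, edgeR adjusted p = 0.00015). KRT7, the type II keratin that accompanies KRT19 in bile ducts, had 0 reads in all libraries, which allows up to 3 counts in each. CTRL replicate 3 had the lowest level of KRT8, KRT18 and KRT19 of all libraries, and without it their log2 fold changes were 0.28, 0.34 and 0.45, with edgeR adjusted p of 0.00017, 0.00029 and 0.00027.

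KRT23 and KRT222 were the keratins that fell. KRT23, a type I keratin that is inducible in liver injury, had 33, 27 and 28 reads in LHX2 and 77, 89 and 50 reads in CTRL libraries, or 1.10, 0.886 and 0.777 CPM in LHX2 libraries, against 2.37, 2.27 and 1.54 CPM in CTRL libraries. The LHX2 libraries were all lower, by 2.26-fold (log2 fold change -1.17 ± 0.22, edgeR adjusted p = 0.00097). KRT222, a keratin-like member of the type I group, had 5.69, 5.38 and 5.66 CPM in LHX2 libraries, against 7.78, 8.01 and 7.12 CPM in CTRL libraries. It was lower by 1.37-fold, again without overlap (log2 fold change -0.45 ± 0.10, edgeR adjusted p = 0.0022). KRT10, the type I keratin of upper skin layers, had 15.1, 13.3 and 13.3 CPM in LHX2 and 16.0, 16.0 and 14.6 CPM in CTRL libraries, and did not pass (log2 fold change -0.17 ± 0.08, edgeR adjusted p = 0.13).

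The 8 keratins with reads that were not tested (KRT9, KRT12, KRT13, KRT15, KRT20, KRT24, KRT76 and KRT80) had at most 5 reads in a library. Summed over all keratins, the level was 1857 ± 82.4 CPM in LHX2 and 1429 ± 150.0 CPM in CTRL libraries (SD, n = 3), 1.30-fold higher. Per kilobase, type II keratins summed to 513 ± 15.4 CPM in LHX2 and 398 ± 39.8 CPM in CTRL libraries, and type I keratins to 360.0 ± 26.6 CPM in LHX2 and 271 ± 31.5 CPM in CTRL libraries (SD, n = 3 each). The ratio of type II to type I per kilobase was 1.41, 1.5 and 1.37 in LHX2 libraries and 1.44, 1.46 and 1.5 in CTRL libraries. The ratios overlapped between the groups, while both sums were higher in LHX2 libraries. With 3 libraries per group, overlap cannot show that the balance stayed the same. The type II sum was nearly all KRT8 and the type I sum mostly KRT18, so the ratio largely repeats that of these genes. It compares RNA levels and not proteins.

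**Figure D3:**
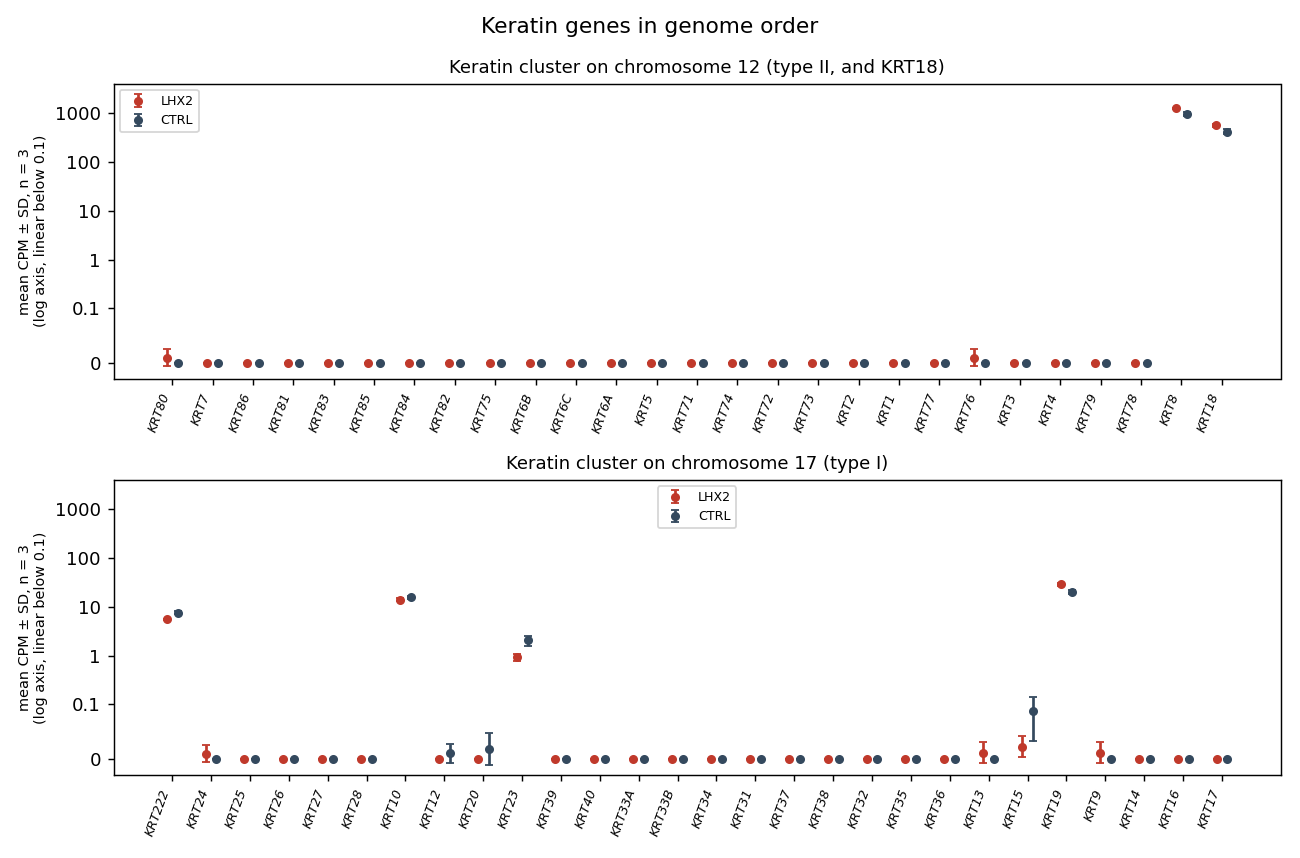
Mean level of every keratin gene of both genomic clusters in genome order (CPM ± SD, n = 3, log axis that is linear below 0.1), LHX2 in red left of CTRL in dark blue. On chromosome 12 only KRT8 and KRT18, at the end of the cluster, rise above the floor, and on chromosome 17 the expressed genes KRT222, KRT10, KRT23 and KRT19 stand apart from each other among silent neighbours.

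By position, expressed keratins were few and scattered. The cluster on chromosome 12 (52168996 to 52952906 of GRCh38) holds 27 keratin genes, of which 23 had no read, 2 had 1 read each, and the remaining KRT8 and KRT18 both rose. The cluster on chromosome 17 (40654665 to 41624575) holds 28 keratin genes, of which 18 had no read and 4 were tested. Of those 4, KRT19 rose, KRT222 and KRT23 fell and KRT10 did not pass, so genes of a single cluster moved in opposite directions. The pairs KRT5 with KRT14 and KRT1 with KRT10 of stratified epithelia were incomplete or absent, since KRT5, KRT14 and KRT1 had 0 reads throughout.

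KRT8 and KRT18 lie head to head on opposite strands, and 525 bases of their annotated exons overlap. The library kit kept the strand, but the strand setting of the read counting is not given in the sources used here, so how far reads of one were counted for the other was not tested. Both genes have many pseudogene copies, and those looked up here, KRT8P41 and KRT18P55, had at most 12 reads in a library. CLDN6 shares 40 exon bases with TNFRSF12A on the other strand, which was itself higher with LHX2 (log2 fold change 0.54, edgeR adjusted p = 0.00027). CLDN2 shares 341 exon bases with RIPPLY1 on the other strand, which had at most 5 reads in a library. F11R and KRT222 share 1853 and 1092 exon bases with longer gene models on their own strand, and whether the authors' annotation held those models is not given in the sources used here.

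Within a library, ratios of reads between family members show the shift in makeup without any scaling by library size. The pairs were chosen after the values were seen and the ratios are descriptive. CLDN6 reads per CLDN1 read were 0.115, 0.104 and 0.0992 in LHX2 libraries, against 0.0564, 0.0515 and 0.0568 in CTRL libraries. CLDN2 reads per CLDN1 read averaged 0.00161 ± 0.000429 in LHX2 and 0.00342 ± 0.000349 in CTRL libraries (SD, n = 3). In both pairs the groups were apart, with a higher share for CLDN6 and a lower share for CLDN2 in LHX2 libraries.

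In the desmosomal plaque, DSP reads per PKP2 read were 3.53, 3.72 and 3.43 in LHX2 libraries, against 2.1, 2.03 and 2.18 in CTRL libraries. PKP2 reads per PKP4 read were 0.546, 0.565 and 0.561 in LHX2 libraries, against 0.732, 0.730 and 0.692 in CTRL libraries. Relative to both desmoplakin and PKP4, PKP2 was thus lower in each LHX2 library than in any CTRL library. DSC2 reads per DSG2 read averaged 0.349 ± 0.0148 in LHX2 and 0.305 ± 0.0113 in CTRL libraries (SD, n = 3) and did not overlap. KRT23 reads per KRT19 read averaged 0.0318 ± 0.0037 in LHX2 and 0.102 ± 0.013 in CTRL libraries (SD, n = 3). KRT8 reads per KRT18 read averaged 2.24 ± 0.112 in LHX2 and 2.35 ± 0.05 in CTRL libraries (SD, n = 3) and overlapped, as did KRT19 per KRT18, at 0.0518 ± 0.0048 in LHX2 and 0.0484 ± 0.000909 in CTRL libraries.

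**Figure D4:**
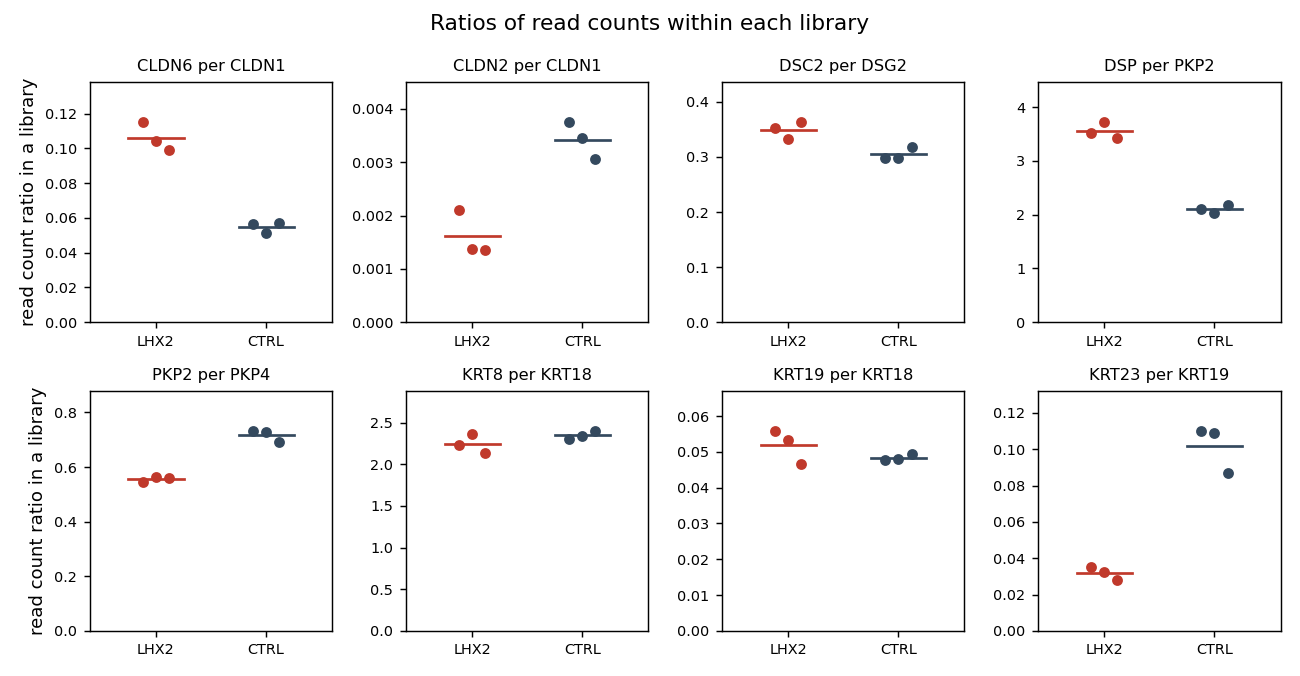
Ratios of read counts between pairs of family members in each library (points) with the group mean (line), LHX2 in red left of CTRL in dark blue, each axis starting at 0. CLDN6 per CLDN1 and DSP per PKP2 are higher and CLDN2 per CLDN1 and KRT23 per KRT19 are lower in LHX2 libraries, while KRT8 per KRT18 and KRT19 per KRT18 overlap between the groups.

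Upstream sequence was compared for the genes that RefSeq's promoter table holds, 68 of the 100 genes with 88 windows of 250 bases, among them 24 of the 35 tested genes with 38 windows. KRT18, KRT19, KRT23 and F11R have no window there. TAATTA, a core that many homeodomain proteins can bind, reads the same on both strands. It occurred in 0 of the 38 windows of tested genes and in 12 of the 50 windows of untested genes, beside 4.35% of all 35116 windows. GGGCGG on either strand occurred in 22 of the 38 windows of tested genes (57.9%), beside 42.6% of all windows. TATAAA on either strand occurred in 1 of the 38, that of KRT10, beside 10.7% of all windows. The median G and C content was 64.0% in windows of tested genes and 45.6% in windows of untested genes, beside 58.0% in all windows. A match is only a run of letters, and its absence says nothing about LHX2 binding at these or other places.

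Genes that work beside the junction and keratin families were mostly higher where they were called, apart from the regulators, of which 3 rose and 5 fell. They were taken from 5 lists of other proteins of these structures and of their regulators, in which 29 tested genes rose and 9 fell. With the length and GC trend of transcripts removed, 24 rose and 12 fell. The lists held 27, 13, 10, 9 and 15 tested genes, and of all genes tested 16.6% rose and 15.8% fell. Of the 27 tested junction scaffold and polarity genes, 11 rose, 1 fell and 15 missed the threshold, and their median log2 fold change was 0.11. AMOT, an angiomotin scaffold that also binds YAP, rose 2.77-fold (log2 fold change 1.47 ± 0.05, edgeR adjusted p = 1.9e-11), and PATJ, a partner of the Crumbs polarity complex, rose 1.81-fold (0.85 ± 0.07, 3e-07). The polarity adaptor PARD6A (1.03 ± 0.29, edgeR adjusted p = 0.014) and the scaffold MAGI2 (0.72 ± 0.21, 0.016) also rose, on few reads. PARD6A lost its call without CTRL replicate 2, and MAGI2 without LHX2 replicate 1, CTRL replicate 1 or CTRL replicate 3. YBX3, a tight-junction associated DNA- and RNA-binding protein, was the gene that fell (-0.31 ± 0.06, edgeR adjusted p = 0.0015).

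Of the 13 tested adherens junction and nectin genes, 7 rose, 1 fell and 5 missed the threshold, and their median log2 fold change was 0.21. PLEKHA7, which anchors microtubules at the junction, averaged 12.2 ± 0.512 CPM in LHX2 and 7.43 ± 0.517 CPM in CTRL libraries (SD, n = 3; log2 fold change 0.72 ± 0.09, edgeR adjusted p = 1.8e-05). The adhesion proteins NECTIN2 and EPCAM rose by 0.41 and 0.38, and the actin linker VCL (vinculin) by 0.37, on the log2 scale. The gene that fell was CDH1, which encodes E-cadherin, at 60 ± 3.2 CPM in LHX2 and 76.5 ± 3.22 CPM in CTRL libraries (SD, n = 3; log2 fold change -0.35 ± 0.05, edgeR adjusted p = 7.9e-05). Of the 10 tested plakin and hemidesmosome genes, 6 rose, 1 fell and 3 missed the threshold (median 0.31). The plakins DST (0.53 ± 0.07), PPL (0.44 ± 0.11), PLEC (0.34 ± 0.08) and MACF1 (0.32 ± 0.07), large linkers of filaments and relatives of desmoplakin, rose. The plakins EVPL (0.29 ± 0.36) and EPPK1 (0.55 ± 0.29), on few reads, did not pass. The integrin chain ITGA6 fell (-0.20 ± 0.04). PLEC and MACF1 lost their calls when the dependence on length and base composition of transcripts was taken out.

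Among the 9 tested intermediate filament genes other than keratins, 2 rose, 1 fell and 6 missed the threshold (median 0.0). VIM, the vimentin of mesenchymal cells and many cultured lines, averaged 152 ± 9.72 CPM in LHX2 and 109 ± 6.63 CPM in CTRL libraries (SD, n = 3; log2 fold change 0.48 ± 0.05, edgeR adjusted p = 6.9e-06). VIM was thus higher in the same libraries as KRT8 and KRT18. NES (nestin) rose by 0.20, a call lost without CTRL replicate 2 and with the length and GC trend removed, and the lamin gene LMNA fell by 0.26 on the log2 scale.

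Of the 15 tested regulators of epithelial genes, 3 rose, 5 fell and 7 missed the threshold (median -0.09). The epithelial ETS factor EHF had 11, 13 and 16 reads in LHX2 libraries, against 51, 47 and 39 reads in CTRL libraries (log2 fold change -1.66, edgeR adjusted p = 0.00018). CDX2, an intestinal homeobox factor, averaged 8.51 CPM in LHX2 and 14.3 CPM in CTRL libraries (-0.75, edgeR adjusted p = 1.5e-05), and ELF3, an ETS relative of EHF, fell by 0.35 on the log2 scale. FOXA2, a forkhead factor of endoderm, rose by 0.33.

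**Figure D5:**
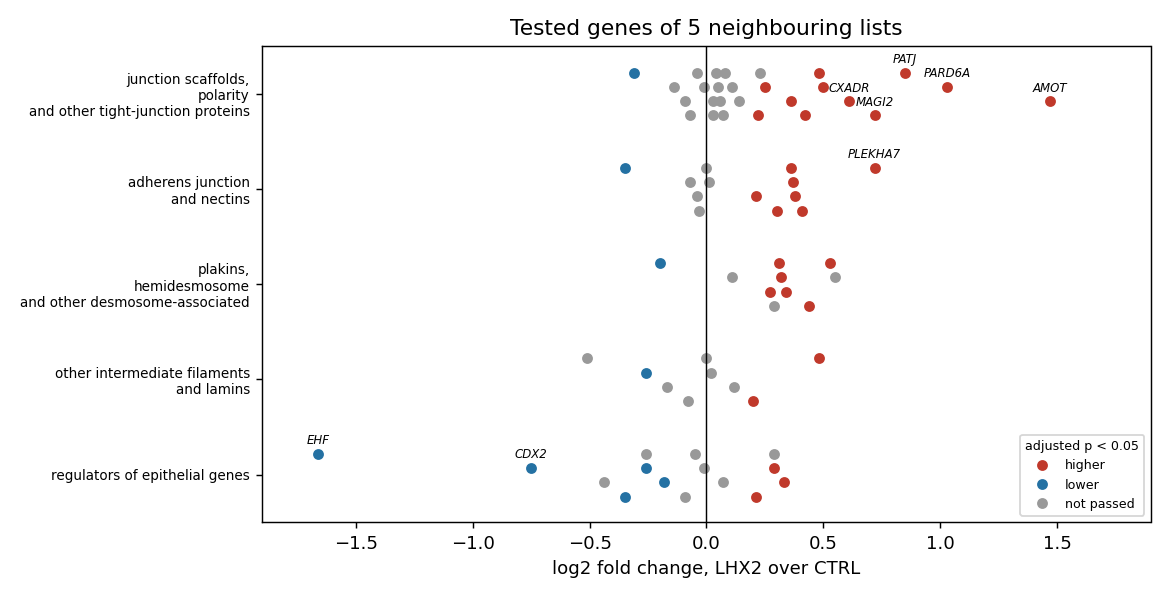
Log2 fold change of LHX2 over CTRL for each tested gene of 5 lists of neighbouring proteins and regulators, coloured by the edgeR call, with names for called genes that changed by at least 0.6. The first 3 lists have 24 called genes right of 0 and 3 left of it, while the regulators extend to EHF at -1.66 on the left.

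Markers of other cell types were set beside these results, and their part in them was not tested. Of 8 cholangiocyte markers, 5 were tested, among which KRT19 and EPCAM rose, with summed levels of 210 to 222 CPM in LHX2 and 198 to 202 CPM in CTRL libraries, while KRT7 was at 0, and CFTR and AQP1 had at most 7 reads in an LHX2 and 24 in a CTRL library. Of 7 stratified epithelium markers, TP63, KRT10 and DSG3 were tested and did not pass, with sums of 25.5 to 27.4 CPM in LHX2 and 27.5 to 27.9 CPM in CTRL libraries and KRT5, KRT14, KRT1 and LOR at 0. Fibroblast markers summed to 46.6 to 52.7 CPM in LHX2 and 17.7 to 19.8 CPM in CTRL libraries, nearly all of it COL1A2 and LUM, with THY1 at 0 and DCN at a single read. COL3A1 had 2, 2 and 4 reads in LHX2 and 9, 7 and 8 reads in CTRL libraries, and PDGFRB had 1, 1 and 2 reads in LHX2 and 6, 10 and 6 reads in CTRL libraries, lower in LHX2 but not tested, and COL1A1 had at most 10 reads. Leukocyte markers summed to 610 to 677 CPM in LHX2 and 469 to 499 CPM in CTRL libraries, nearly all of it LYZ and CD68, with CD3E at 0 and PTPRC at up to 3 reads. Endothelial markers summed to 2.78 to 3.22 CPM in LHX2 and 3.75 to 4.28 CPM in CTRL libraries, with CDH5, KDR and TEK at 0. Nearly all of that sum was PECAM1, which was lower with LHX2 (log2 fold change -0.41 ± 0.13, edgeR adjusted p = 0.024).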

How the data were processed

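The deposited values were raw read counts per gene, whole numbers without normalization, in 28265 genes and 6 libraries. Per the labels' protocols, a strand-keeping kit for mRNA was used for the libraries. Per the submitters' processing notes, the authors aligned and counted with tools that include featureCounts 2.0.0, SAMtools 1.9, Bowtie2 2.3.5.1, TopHat2 2.1.1, bcl2fastq 2.20 and FastQC, on GRCh38. Neither the annotation nor the strand setting is given in the sources used here. A control column with a deviating name was taken as CTRL replicate 1 by its number.

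Low counts were removed with filterByExpr (minimum count 10, total 15, proportion 0.7), and libraries were scaled by TMM factors of 0.985 to 1.02. LHX2 was compared with CTRL by the edgeR quasi-likelihood F-test with Benjamini-Hochberg adjustment over 14533 genes at 0.05. Standard errors came from the F statistic. The test ran in edgeR 4.0.16 under R 4.3.3, beside DESeq2 1.42.0 and limma 3.58.1, and was tested on simulated data. Tables and plots were made in Python 3.11.15 with matplotlib 3.10.9, numpy 2.4.6 and pandas 2.3.3. RefSeq gave positions (27966 genes matched by identifier) and GENCODE release 29 gave lengths and exon overlaps. Counting floors of 3 counts cover counting error only.

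The genes and lists were chosen with earlier results of these data known. Named by rule were all called junction and keratin genes, those with a mean of at least 5 CPM, OCLN, TJP1, CGN, DSP, JUP, F11R, KRT8, KRT18, KRT19, KRT7, LHX2, and up to 4 called genes of each further list. Further junction and keratin genes, marker genes, and YBX3, CDH1, ITGA6, EVPL, EPPK1, TNFRSF12A and RIPPLY1 were named after their values were seen. Some genes that the rule names are left out of the account. The alternatives comprised limma-voom, DESeq2, leaving out each library, the replicate number as a block, scaling by library totals, RLE or upper-quartile factors, filtering not at all or at 1 CPM in 3 libraries, adding the keratin pseudogenes, and removal of a loess trend (span 0.3, log2 CPM over 1) with length and GC content.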

Additional observations from a re-analysis of the deposited data

How the results depend on the processing

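Of the 16 called junction and keratin genes, 14 kept their direction and call under every alternative run. The exceptions were OCLN (0.11 to 0.17 where the call was lost) and PKP3 (0.61 to 0.81 where it was lost), and the 1 CPM filter removed PKP3. The replicate block took both calls (OCLN 0.16, edgeR adjusted p = 0.071, and PKP3 0.76, 0.062) and left 14 called, with 3768 of all genes called against 4716. Same-numbered libraries did not deviate together (correlations of -0.056, -0.074 and -0.195). With 3 libraries per group these correlations cannot decide whether the libraries were made in matched pairs, and no label states a pairing. Per setting, 14 to 17 of these genes were called. CLDN16 passed with RLE factors (-0.28), without a filter (-0.28) and without LHX2 replicate 2 (-0.34), CLDN23 passed without CTRL replicate 3 (-0.39) and with the length and GC trend removed (-0.34), and CLDN19 passed with library totals (1.05). Genes near 0 changed sign without a call: MARVELD2 (-0.0003 without CTRL replicate 1, up to 0.06 with other libraries left out), TJP1 (-0.03 with the length and GC trend removed), JUP (0.01 with library totals and without LHX2 replicate 2, down to -0.08 with other libraries left out) and DSG1 (0.1 without LHX2 replicate 1 and 0.07 without CTRL replicate 2, down to -0.25 with other libraries left out). The cause of these differences was not tested. CLDN2, KRT23, PKP3 and CLDN19 rest on fewer than 100 reads per library, which limits their precision.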
